A study of Arabidopsis thaliana with 8 samples.

Results

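The accessible regions on the arms of chromosome 4 of Arabidopsis thaliana were taken as stretches of DNA with an ATAC-seq peak in at least 1 of 8 libraries. Peaks of all lists that overlapped by at least 1 bp were merged, and a merged region belonged to an arm when its middle lay below 1.5 Mb (short arm) or above 6.3 Mb (long arm) in TAIR10. This gave 3363 arm regions of 24103 on the nuclear chromosomes. The short arm held 337 of them and the long arm 3026, and a further 337 regions lay between the limits.

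ATAC-seq uses the transposase Tn5, which inserts sequencing adapters where DNA is not covered by nucleosomes, so that a peak marks an open stretch such as a promoter or an enhancer. Chromosome 4 has a small short arm, a middle of centromere and compact, repeat-rich chromatin, and a long gene-rich arm. The long arm carries well studied clusters of immune receptor genes, among them the RPP4 and RPP5 cluster, and the arms also hold regulators of flowering such as FRI (FRIGIDA).

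The libraries came from shoots of seedlings of 2 recombinant inbred lines, RIL149 and RIL50, both from a cross of the accessions Ler and Cvi, whose chromosomes are fixed mosaics of the parental genomes. The study concerns lines that differ in how often CG methylation changes between generations. In each line 2 lineages were sampled at generation 3 and at generation 10, with 1 library each. Generations are numbered as in the labels, while the names of the lists carry numbers that are lower by 1. The groups were therefore RIL149 at generation 3, RIL149 at generation 10, RIL50 at generation 3 and RIL50 at generation 10, each with a library of lineage 1 and a library of lineage 2. The generation 3 libraries were all of sublineage 1, and the generation 10 libraries were of sublineage 2 except that of RIL149 lineage 2, which was of sublineage 1. Each line is 1 inbred genotype, so a difference between the lines is a difference between 2 genotypes. The labels do not say whether a library came from 1 plant or from a pool, so the p-values measure only the spread between these libraries, which may be technical.

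The lists differed in length before any comparison of lines. RIL149 at generation 3 lineage 2 had 13186 nuclear peaks and stood below all other libraries, which had between 16952 and 21540. The background pileup, the number of reads or fragments expected at a position, was recovered from the fold and p-value of the arm peaks. Its lowest value in each library was taken as a rough measure of depth. This ranged from 8.71 to 25.3 over the 8 libraries and was 12.5 in the library with the shortest list. No source used here says whether reads or fragments were counted, or whether organelle reads enter it. The part of the background pileup in what was listed was not tested. The total counts of line-specific regions are therefore also given without that library, and their order along the arm without the shortest list of each line. The other counts of line-specific regions and genes use all 8 libraries.

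On the short arm, RIL149 at generation 3 had peaks in 237 regions (lineage 1) and 184 regions (lineage 2), and at generation 10 in 281 and 302 regions. RIL50 had peaks in 276 and 250 short arm regions at generation 3 and in 267 and 235 at generation 10. On the long arm the RIL149 libraries had 2023 and 1513 regions at generation 3 and 2355 and 2556 at generation 10. RIL50 had 2315 and 2252 long arm regions at generation 3 and 2302 and 2036 at generation 10. The lowest and the highest library were thus both of RIL149 on each arm, and the range of RIL50 lay within that of RIL149.

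**Figure D1:**
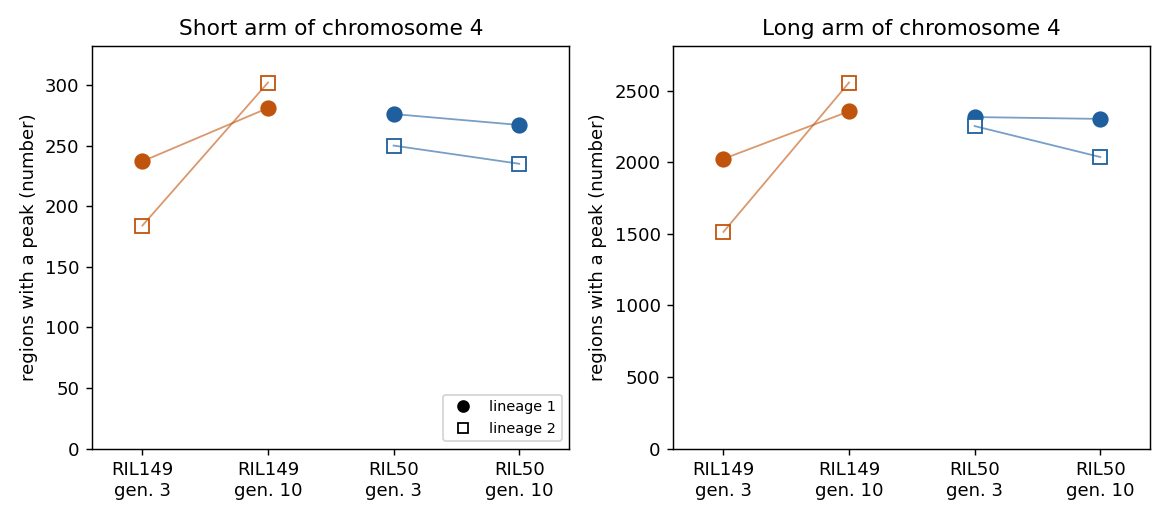
Number of arm regions with a peak in each of the 8 libraries (vertical axis, from 0) by line and generation (horizontal axis), for the short arm (left) and the long arm (right). Filled circles are lineage 1 and open squares lineage 2, and lines join the libraries of 1 lineage. The RIL149 libraries run from 184 to 302 on the short arm and from 1513 to 2556 on the long arm, around those of RIL50.

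The numbers of open regions on the arms differed between the lines by less than the spread between libraries. The short arm held 251 ± 52.2 regions per library in RIL149 and 257 ± 18.2 in RIL50 (mean ± SD, n = 4 each, two-sided exact permutation p = 0.914). The long arm held 2112 ± 456 regions in RIL149 and 2226 ± 130 in RIL50 (n = 4 each, two-sided exact permutation p = 0.771). Without the shortest list of RIL149 both differences turned around, to 16.3 more short arm regions and 85.2 more long arm regions in RIL149, again with no difference beyond the spread. As a share of the nuclear regions of its own library, the arms made up 13.9% ± 0.0836 in RIL149 and 14.1% ± 0.118 in RIL50 (n = 4 each, exact permutation p = 0.0857, 0.6545 after Benjamini-Hochberg adjustment over the 18 arm measures compared). The smallest p that 4 libraries against 4 allow is 0.0286. Generation 10 had 271 ± 28.1 short arm regions and generation 3 had 237 ± 38.7 (n = 4 each, exact permutation p = 0.229), and on the long arm 2312 ± 214 against 2026 ± 364 (n = 4 each, exact permutation p = 0.2).

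The arms were denser in open regions than the middle of the chromosome in every library. Regions with a peak were found at 169 ± 24.2 per Mb on the short arm, at 177 ± 25.7 per Mb on the long arm and at 46.7 ± 7.72 per Mb between the limits (mean ± SD, n = 8 libraries). The other 4 chromosomes, with their pericentromeres included, had 146 ± 20.9 per Mb. The short arm differed from the middle by 123 ± 16.6 per Mb and the long arm by 130 ± 18.3 per Mb (SD of the difference), each higher in 8 of 8 libraries (exact permutation by sign, p = 0.0078, the smallest that 8 libraries allow). The short arm was 7.22 ± 4.76 per Mb below the long arm in 8 of 8 libraries (exact permutation p = 0.0078), but was 2.80 per Mb above it when every list was limited to the same number of peaks (exact permutation p = 0.0391). These p-values measure the spread between libraries, not between stretches of chromosome. Merged over all libraries, the regions covered 9.52% of the short arm and 10.6% of the long arm, against 2.46% of the middle. No source used here gives the handling of reads that match several places, and its part in the low values of the middle was not tested.

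Open regions were listed on both sides of each arm limit. The last 3 regions of the short arm lay at 1490281 to 1497241, and 2 of them were open in all 8 libraries, with folds from 1.86 to 8.18. The first 3 regions past that limit, from 1499755, included 2 that were open in all 8. At the start of the long arm the first region (6299796 to 6300526) was open in all 8 libraries with folds from 2.74 to 4.67, the second (6302608 to 6302799) in 3 RIL149 libraries and no RIL50 library, and the third (6308429 to 6308829) in all 8. The fold is the authors' enrichment of the peak summit over local background and is used only to describe, rank or filter regions. The background pileup differed between the lists. A rank by the lowest or the mean fold of several libraries is therefore a description, and folds were not tested between libraries.

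Open regions were mostly shared. Of the arm regions 1511 (44.9%) had a peak in all 8 libraries and 386 (11.5%) in 1 library only. On the short arm 172 regions (51.0%) were shared by all 8 and on the long arm 1339 (44.3%). Regions seen once had a median width of 148.5 bp and those in all 8 libraries one of 522 bp. This is the width of the merged region, which is at least that of each peak in it. Merging from more lists can thus itself widen a region. The shared regions also had their summits close together: the summits of the 8 libraries lay within a median of 59 bp on the short arm and 67 bp on the long arm. The share in all 8 rose along the long arm from 33.6% between 6.3 and 8 Mb to 41.4% between 8 and 10 Mb, fell to 34.9% between 10 and 12 Mb, and was 44.9%, 48.0% and 51.9% in the following stretches up to 14 Mb, up to 16 Mb and beyond.

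Most arm regions lay at the ends of genes. A gene end was taken as the stretch from 1000 bp outside to 200 bp inside either end of a protein-coding gene, and 2786 regions (82.8%) touched one. A further 194 (5.77%) lay within gene bodies and 383 (11.4%) away from genes. Of the regions open in all 8 libraries 86.0% touched a gene end, and of those in 1 library 73.8%. Away from genes lay 7.12% of the short arm regions and 11.9% of the long arm regions.

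The regions open in all 8 libraries were ranked by the lowest of their 8 folds. The highest lay at AT4G22350 and AT4G22360 (11807153 to 11807896), with folds from 20.3 to 25.5. The second, at the syntaxin gene SYP42 (972139 to 972719), which encodes a membrane fusion protein of the trans-Golgi network, ranged from 19.1 to 28.1. Next came ACYB-2, a gene for a cytochrome b561, with 17.7 to 24.1, and the region between NYE1, which acts in chlorophyll breakdown, and PYR4, an enzyme of pyrimidine synthesis, with 16.9 to 24.1. GSH1, the gene of the first enzyme of glutathione synthesis, had folds from 16.4 to 20.0, and AT4G16490 from 16.4 to 22.4. KEA2 and FRI shared the eighth (268004 to 268944), whose folds were 16.6, 16.8, 15.6 and 17.7 in RIL149 and 18.3, 17.5, 15.7 and 18.6 in RIL50, each in the order of generation 3 lineages 1 and 2, then generation 10 lineages 1 and 2. G3Pp4, a putative glycerol-3-phosphate transporter gene, and the autophagy gene ATG8F were the ninth and the tenth, with lowest folds of 15.1 each.

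Regions held by 1 line only were few. A region was called line-specific when it was listed in 4 of 4 libraries of a line and in 0 of 4 of the other, and 67 arm regions met this. The background, that is the share of all nuclear regions that met the same rule, was 1.59%, with 384 of 24103. Only RIL149 had 18 of the arm regions (0.535%, background 0.705%) and only RIL50 had 49 (1.46%, background 0.888%). The short arm held 1 of the first kind and 2 of the second, and the long arm 17 and 47. Outside the arms the counts were 152 (0.733%) for RIL149 and 165 (0.796%) for RIL50. Region by region, the two-sided exact permutation test with Benjamini-Hochberg adjustment called none (0% of all nuclear regions), since its smallest unadjusted p of 0.0286 was reached by 67 arm regions and the lowest adjusted p was 1. A list that lacks a region shows that no peak passed the authors' threshold there, not that the DNA was closed.

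The larger number of regions open only in RIL50 was sensitive to 1 library. It was kept when any library other than RIL149 at generation 3 lineage 2 was left out. Without that library the rule asked for 3 libraries of RIL149 but still for 4 of RIL50. Without RIL149 at generation 3 lineage 2, the arms held 59 regions only in RIL149 (1.76%, background 1.63%) and 50 only in RIL50 (1.49%, background 0.893%). The 41 regions that joined had a median fold of 2.91, and the 18 found with all 4 libraries one of 5.17. When the shortest list of each line was left out, so that 3 libraries of each remained, there were 64 regions only in RIL149 (1.92%, background 1.79%) and 70 only in RIL50 (2.10%, background 1.45%). Outside the arms the same libraries gave 365 (1.77%) and 277 (1.34%). On the arms the rule with 3 libraries of each line thus kept a larger number for RIL50, by a small margin. Counts with fewer libraries are also larger because the rule asks for fewer peaks.

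Any difference in the number of libraries was then counted. Of the arm regions 611 (18.2%, background 18.4%) were listed in more RIL149 than RIL50 libraries, and 931 (27.7%, background 27.2%) in more RIL50 libraries. A difference of at least 3 libraries was found for 70 of the 3363 arm regions towards RIL149 (2 of them on the short arm, background 1.95%) and for 108 towards RIL50 (4 on the short arm, background 2.54%).

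Within single generations the direction depended on the generation, on the arms as over all nuclear regions. At generation 3, 28 arm regions (0.954%, background 1.04%) were open in both RIL149 libraries and neither RIL50 library, and 279 the other way (9.51%, background 8.6%). At generation 10 the counts were 210 towards RIL149 (6.57%, background 6.65%) and 66 towards RIL50 (2.06%, background 1.53%). The longer lists at each generation thus had more regions of their own.

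Line-specific regions were counted in stretches along the long arm. Of 286 regions between 6.3 and 8 Mb, each line alone had 4. Of 456 regions between 8 and 10 Mb, RIL149 alone had 2 and RIL50 alone 14, and of 430 between 10 and 12 Mb the counts were 6 and 14. Between 12 and 14 Mb all 8 were of RIL50. From 14 to 16 Mb the counts were 2 and 3 of 529 regions, and beyond 16 Mb they were 3 and 4 of 790. With 3 libraries of each line the stretch from 12 to 14 Mb held 12 regions only in RIL149 and 10 only in RIL50, so its one-sided count was not kept, while from 8 to 10 Mb there were 11 and 17 and from 10 to 12 Mb 14 and 19.

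**Figure D2:**
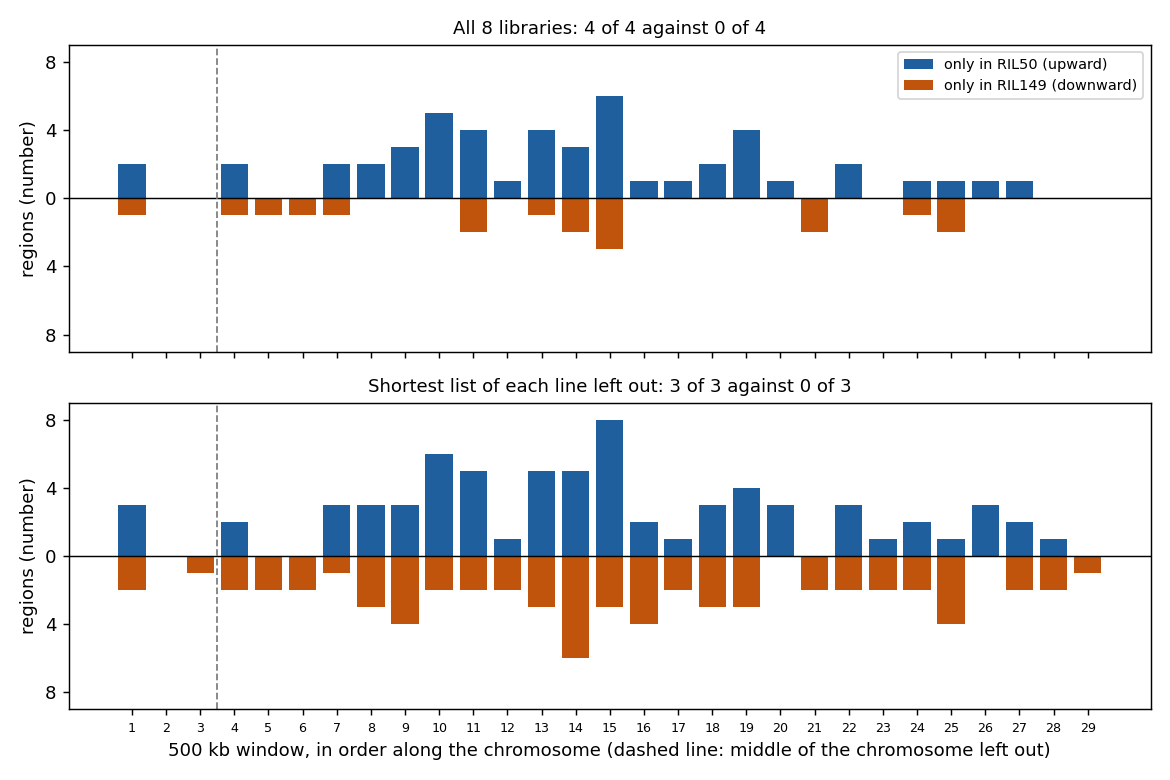
Number of line-specific regions in each of 29 windows of 500 kb in order along the arms (horizontal axis), with regions only in RIL50 drawn upward and regions only in RIL149 downward. The upper panel uses all 8 libraries (49 upward and 18 downward) and the lower panel leaves out the shortest list of each line (70 upward and 64 downward). Windows 1 to 3 are the short arm, and window 15 has the most in the upper panel, with 6 upward and 3 downward.

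Ordered along the long arm, the line-specific regions formed 23 runs of the same direction. The longest were 3 runs of RIL50: 11 regions from 8043456 to 9516791, 7 from 9844826 to 10904845 and 13 from 11901120 to 14165345. The longest run of RIL149 had 3 regions, from 10937250 to 11121883. With 3 libraries of each line there were 69 runs, the longest of RIL50 had 5 regions and the longest of RIL149 had 6, from 10937250 to 11121883, so the long RIL50 runs were not kept. Of the 29 windows, 19 held more regions only in RIL50 and 4 more only in RIL149 with all libraries, against 10 and 13 with 3 of each line.

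The longest stretch without a line-specific region, counted in regions, was most of the short arm. From 426334 to 1499999, 238 regions followed each other of which none was line-specific and none differed by at least 3 libraries. The long arm had stretches of 236 regions (16708324 to 17486324) and 227 regions (14558853 to 15363387), but these held 6 and 8 regions that differed by at least 3 libraries.

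The number of peaks per 500 kb window was fitted over the 240 windows of the nuclear genome with limma (an arm window that crosses a limit counts all its peaks), on log2(peaks + 1) after subtraction of the median of each library. Of all windows 5 (2.08%) were called between the lines at an adjusted p under 0.05, all higher in RIL149, and none of the 29 arm windows was among them (lowest adjusted p = 0.167, 4 with an unadjusted p under 0.05). The lowest belonged to the window from 11500001 to 12000000, where the log2 ratio of RIL149 to RIL50 was -0.16 ± 0.04 (SE). There the RIL149 libraries had 73, 62, 87 and 100 regions and the RIL50 libraries 100, 99, 96 and 82. The other 3 were the windows starting at 14000001 (-0.13 ± 0.05), 16500001 (0.13 ± 0.05) and 18500001 (0.18 ± 0.07, the last window, with 37 regions). Without RIL149 at generation 10 lineage 2 that last window was called, at 0.25 ± 0.04 (limma adjusted p = 0.0227). Between generations limma called 0 of the 240 windows (0%), 9 had an unadjusted p under 0.05, and 1 of these was on the arms.

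**Figure D3:**
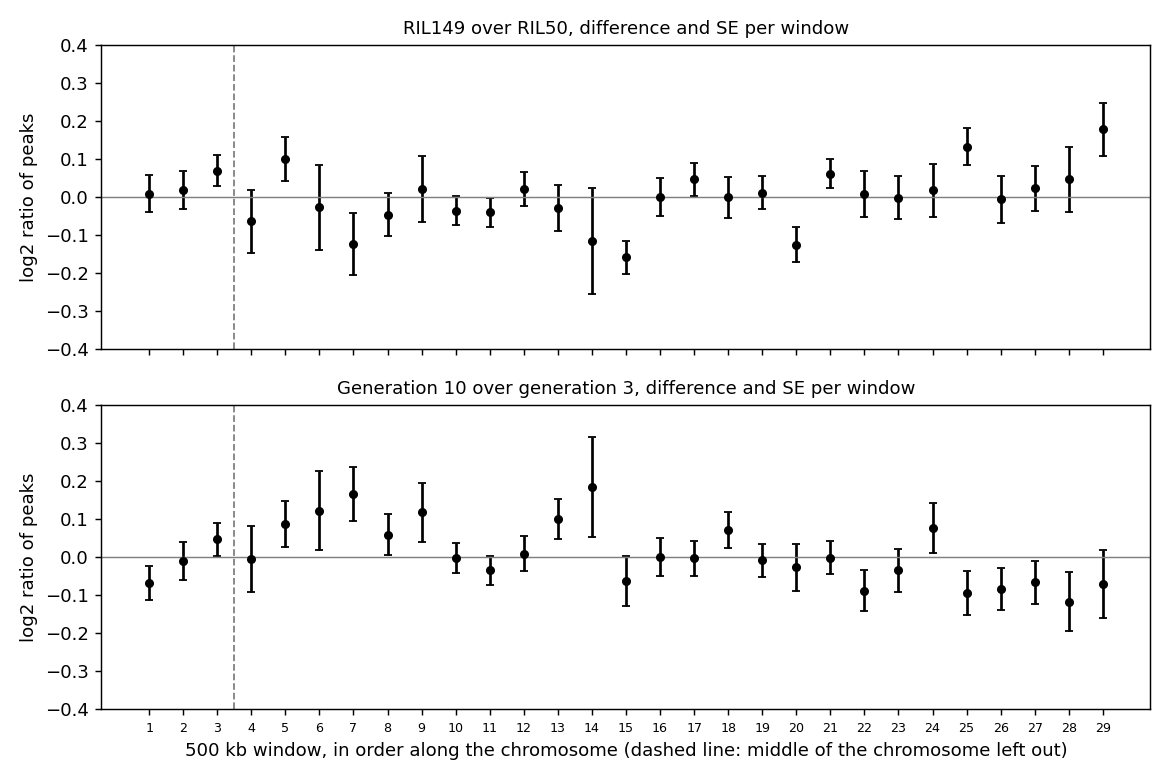
Difference in peaks per 500 kb window on the log2 scale (vertical axis, points with SE bars, 8 libraries) for the 29 arm windows in order along the chromosome, with RIL149 over RIL50 above and generation 10 over generation 3 below. No arm window passed the adjusted threshold. Window 15 has the lowest value of the upper panel, -0.16.

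The strongest region open only in RIL50 lay at BGLU9, a gene for a beta-glucosidase, an enzyme that releases sugar from plant glucosides. It spans 13860513 to 13861218 and also touches the neighbouring gene BGLU10. Its folds were 19.8 and 13.1 at generation 3 and 13.8 and 16.2 at generation 10 (mean 15.7 ± 3.00, SD, n = 4), and no RIL149 library listed a peak. At BGLU10 the highest end peak of the RIL50 libraries was this same region. The RIL149 libraries listed an end peak of BGLU10 outside it, with folds of 2.35, 2.66, 2.46 and 3.77. The region at WIN2, which encodes a protein phosphatase of type 2C with a role in defence (15363388 to 15364239), had folds of 11.9, 10.7, 11.1 and 11.4 (mean 11.3 ± 0.516, n = 4). These 4 values lay close together, and no RIL149 library listed the region.

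Immune receptor genes of the RPP4 and RPP5 cluster held line-specific regions in both directions. RPP4 and RPP5 encode nucleotide-binding leucine-rich repeat receptors that recognise the downy mildew pathogen, and SNC1 is a member of the same cluster with a known autoimmune allele. Of 3 regions open only in RIL50 between 9495756 and 9499462, the one at 9495756 to 9496080 at RPP4 had folds of 5.01, 5.98, 4.93 and 7.98, and the one at 9499112 to 9499462 at SNC1 had 6.64, 4.84, 4.75 and 5.43. SNC1 had another end peak in all 8 libraries, with folds from 9.70 to 18.8, so the gene was open at an end in both lines.

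RPP5 had a region of each direction within 1.88 kb. The region from 9544108 to 9544774 was listed only in RIL50, with folds of 7.62, 7.01, 7.07 and 9.01. The region from 9545699 to 9545983 was listed only in RIL149, with folds of 3.67, 2.81, 5.44 and 5.04. A second pair of opposite direction lay between these genes, with AT4G16900 in RIL50 (9516480 to 9516791, mean fold 4.58 ± 0.892) and AT4G16920 in RIL149 (9525027 to 9525268, mean fold 5.20 ± 1.31). Receptor genes of such clusters are near-identical copies in part, and no source used here says how reads matching several copies were placed, so these values are uncertain.

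The remaining 7 of the 12 named regions of RIL50 had mean folds between 4.66 and 7.22. They lay at EMB2758 (7.22 ± 0.958), which is needed for embryo development, and at the ABC transporter genes ABCG43 (6.06 ± 1.47) and ABCG42 (5.77 ± 0.615), whose regions are 2 of a pair within 1.81 kb. PUP7, a gene of the purine permease family, had 5.95 ± 1.31. VPS22 and VPS26B, which encode subunits of the ESCRT-II and retromer complexes of endosomal sorting, had 5.71 ± 1.54 and 5.29 ± 1.57. LDOX, the leucoanthocyanidin dioxygenase of anthocyanin synthesis, had 4.66 ± 1.5 (12004445 to 12004630). The region at LDOX lost its call with lists of equal length, and that at VPS26B when a peak had to cover 50% of the region.

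Only 6 regions open in RIL149 alone lay at a gene with a symbol. The highest was on the short arm at ATOZI1 (360448 to 360703), a gene named for its induction by ozone, with folds of 8.29, 8.34, 10.1 and 11.9 (mean 9.68 ± 1.74, n = 4). NFC5, a WD40 repeat protein of the MSI family that binds histones, had 3.21, 3.03, 6.79 and 5.04 (14558266 to 14558852), and the RPP5 region is described above. The autophagy gene APG8A had 2.81 ± 0.386, the aquaporin gene PIP3 2.36 ± 0.196 and MYB32, a transcription factor of the phenylpropanoid pathway, 2.52 ± 1.1. These last 3 were low, and each lost its call under 1 or more other settings.

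A further 4 regions with high folds were outside the rule for named regions and were picked out after their values were seen. In RIL149 both lay at genes with no symbol in the table used, and in RIL50 both lay away from genes. At AT4G20690 and AT4G20700 (11097818 to 11098167) the RIL149 libraries had folds of 19.8, 13.8, 25.3 and 24.7 (mean 20.9 ± 5.34), the highest mean of all 67. AT4G22280 (11778029 to 11778666) had 9.31, 7.61, 12.6 and 12.9 in RIL149. In RIL50 the region between AT4G19520 and AT4G19530 (10649299 to 10650529) had 16.5, 14.4, 12.5 and 15.6, and the region from 11137467 to 11137809 between AT4G20790 and AT4G20800 had 12.3, 10.5, 9.49 and 10.5. In 5 of the 67 regions all 4 libraries of the line had folds above 9, a limit that is also outside that rule. The absence of a peak in the other line is part of the definition of all 67.

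**Figure D4:**
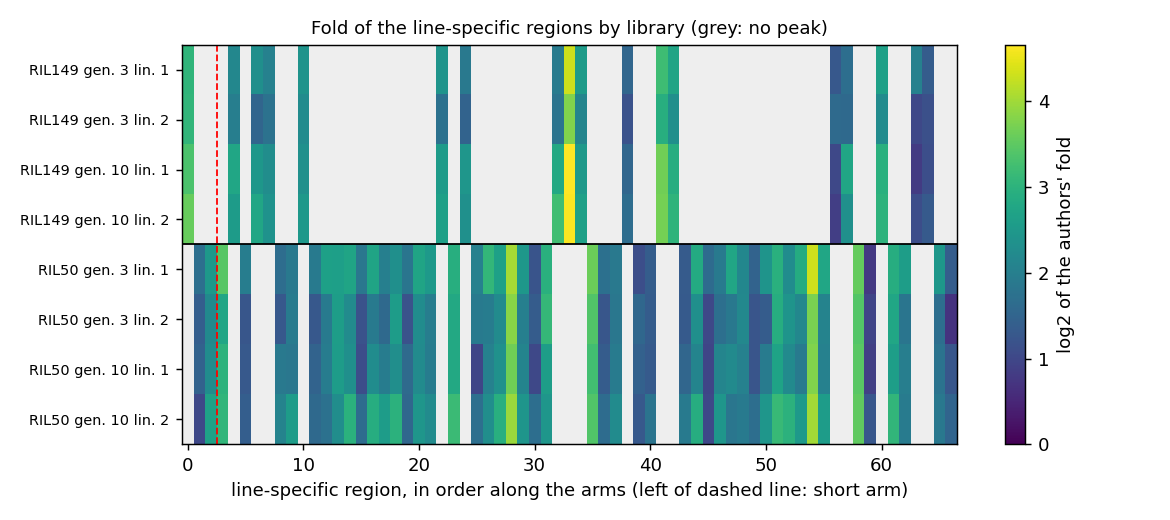
Authors' fold (log2 colour scale) of the 67 line-specific regions in each library, with regions in order along the arms (horizontal axis) and libraries in rows, RIL149 above and RIL50 below the black line. Grey marks the absence of a peak, and the 3 regions left of the dashed line are on the short arm. The brightest column of RIL149 is the region at AT4G20690, with a mean fold of 20.9, and that of RIL50 the region at BGLU9, with 15.7.

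The window from 11500001 to 12000000 had the most line-specific regions, 9 of its 124. The 3 of RIL149 lay at APG8A, at AT4G22280 and between AT4G22410 and AT4G22430 (6.84 ± 1.39). The 6 of RIL50 lay at SRF8, a receptor-like kinase gene of the STRUBBELIG family (2.58 ± 0.337), AT4G22235 (2.79 ± 0.468), INP1, which acts in the formation of pollen apertures (2.93 ± 0.599), AT4G22610 (6.0 ± 1.59), near ACR7, a gene of an ACT domain protein (2.27 ± 0.551), and near AT4G22790 (4.21 ± 0.948). Directions alternated within the window: APG8A, then 2 of RIL50, 2 of RIL149 and 4 of RIL50. All 6 of RIL50 and APG8A lost their call under at least 1 other setting, and the regions at AT4G22280 and AT4G22410 did not under those tried.

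The position of line-specific regions relative to genes was compared with that of all arm regions. Of the 67, 50 (74.6%) touched a gene end against 82.8% of all arm regions, and 13 (19.4%) lay away from genes against 11.4%. Of the 49 regions only in RIL50, 11 (22.4%) lay away from genes, and of the 18 only in RIL149 2 (11.1%). Some of the 11 were neighbours in the same stretch, such as those starting at 7842084 and 7842760, so they are not 11 separate places. Regions that were also in 4 libraries but not of 1 line lay at gene ends in 79.0% of 157 cases and away from genes in 11.5%. In all, 10 groups of line-specific regions lay less than 10 kb apart, and 8 of them were of 1 direction, all RIL50, among them 3 regions between 11137467 and 11139276 next to AT4G20800 and 2 between 425108 and 426333 on the short arm.

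The arms hold 3746 protein-coding genes, of which 1741 (46.5%) had an end peak in all 8 libraries and 923 (24.6%) in none. An end peak in 4 RIL149 and 0 RIL50 libraries was found for 11 genes (0.294%), and the reverse for 23 (0.614%). These shares are the background for the gene lists, which follow by function. A listed gene is called open where it had an end peak, and peaks within gene bodies are not counted unless stated.

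Of the genes of photosynthesis most were open in every library. Of 10 on the arms 9 had an end peak in all 8 libraries. PSAD-1, a subunit of photosystem I, had folds from 12.9 to 22.3, PETC, the Rieske protein of the cytochrome b6f complex, 11.9 to 23.0, and LHCB5, an antenna protein of photosystem II, 5.17 to 10.9. The exception was NdhM, a subunit of the chloroplast NDH complex, with peaks in 2 RIL149 and 3 RIL50 libraries at folds from 2.47 to 3.83. WRKY genes, a family of transcription factors of stress responses, were open in all 8 libraries in 12 of 15 cases, with WRKY28 at 11.1 to 18.0 and WRKY32 at 10.6 to 21.4, while WRKY29 and WRKY34 had none and WRKY19 had peaks in 3 RIL149 and 1 RIL50 libraries.

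Genes of flowering were split. Of 14, 6 were open in all 8 libraries, including FRI, the determinant of the vernalization requirement, VRN2, a Polycomb subunit (3.25 to 5.66), and AGL19, a MADS-box activator of flowering (6.88 to 17.6). None of the libraries listed an end peak at FWA, which is silenced by methylation in vegetative tissue, at AG, a floral organ identity gene, at TSF, a relative of the florigen gene FT, or at SPA2. FCA, an RNA-binding promoter of flowering, was open in 2 RIL149 and 4 RIL50 libraries, LD and AGL24 in 3 and 4, and GA1, which acts in gibberellin synthesis, in 2 RIL149 libraries and 1 of RIL50. In the light and temperature list 5 of 10 were open in all 8 libraries, including DET1, a repressor of light responses, with 10.0 to 32.1, and the phytochrome gene PHYD with 4.43 to 12.7, but the phytochrome gene PHYE had none. The cold regulators CBF1 and DREB1A were open in all 8, and CBF2 in 2 RIL149 and 4 RIL50 libraries.

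Genes of DNA methylation and silencing were open in all 8 libraries in 8 of 16 cases, a share of 50.0%. These included CRT1 (MORC1, 11.8 to 21.8), RDR2, the RNA polymerase of the small RNA pathway (3.4 to 6.98), NRPD4, a subunit shared by the plant polymerases of that pathway (7.24 to 16.2), and SWN, a Polycomb methyltransferase (4.43 to 9.68). CMT2, a chromomethylase that acts outside CG sites, had peaks in 4 RIL149 and 3 RIL50 libraries with folds from 1.90 to 4.30. No end peak was listed at SUVH9, DML3, MEE57 or DMT2. In this list 1 gene (6.25%) was open in more RIL149 and 1 (6.25%) in more RIL50 libraries, beside 8.86% and 15.2% of all arm genes. No gene of the list had an end peak in 4 libraries of 1 line and 0 of the other.

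Disease resistance genes had an end peak in all 8 libraries in 3 of 14 cases (21.4%), beside 46.5% of all arm genes. The limit given above for reads matching several copies holds for the receptor genes of this list too. These were SNC1, RPS2, a receptor that detects a bacterial effector (8.23 to 12.0), and ADR1-L1, a helper receptor (2.07 to 8.75). RPP4 had an end peak in 0 RIL149 and 4 RIL50 libraries, and AT4G27190 in 1 and 4, with folds from 4.08 to 6.88. AT4G19500, AT4G19510, AT4G10780, AT4G27220 and EDS5 had no end peak. EDS5 had peaks in 3 RIL149 and 4 RIL50 libraries when those within the gene body were counted too. RLM3 and ACD6 had an end peak in 4 RIL149 and 3 RIL50 libraries. With gene body peaks counted too, each was listed in 4 RIL149 and 4 RIL50 libraries.

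The cysteine-rich receptor-like kinases, a tandem family of the long arm with links to defence, were open in all 8 libraries in 10 of 30 cases and in none in 7. CRK27 reached 6.94 to 14.9 and CRK41, on the short arm, 7.61 to 12.8. CRK31 and CRK32 share a region that was listed in 2 RIL149 and no RIL50 libraries (1.99 to 2.82), and CRK21 and CRK22 one that was listed in 2 RIL149 and 4 RIL50 libraries. Of 4 listed beta-glucosidase genes BGLU9 was open only in RIL50, BGLU47 in 2 RIL149 and 4 RIL50 libraries, and BGLU3 in none.

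Among genes of glucosinolate synthesis, a class of defence compounds that varies between accessions, 4 of 8 were open in all 8 libraries. On the short arm AOP1 was among them (4.93 to 10.6), while its neighbours AOP2 and AOP3, whose variation is known to set side chain structure, had no end peak in any library. Of 9 auxin response genes 3 were open in all 8, with IAA11 at 14.9 to 18.9, and IAA14 had peaks in 1 RIL149 and 4 RIL50 libraries (2.87 to 9.68). The auxin synthesis gene YUC2 was open in 2 RIL149 and 0 RIL50 libraries. Housekeeping genes were open in all 8 in 4 of 8 cases, including ROC5 (12.1 to 19.7), and none of the 8 lacked a peak throughout.

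Markers of root were examined because the samples are labelled shoot. Of 9 root genes 1 was open in all 8 libraries, RHS17 (6.64 to 15.3), and RSL2, RHS14, RHS16 and RSA1 had none. SHR and COW1 each had peaks in 3 libraries of each line. IRT1, the iron transporter of the root epidermis, had an end peak in 0 RIL149 and 2 RIL50 libraries.

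**Figure D5:**
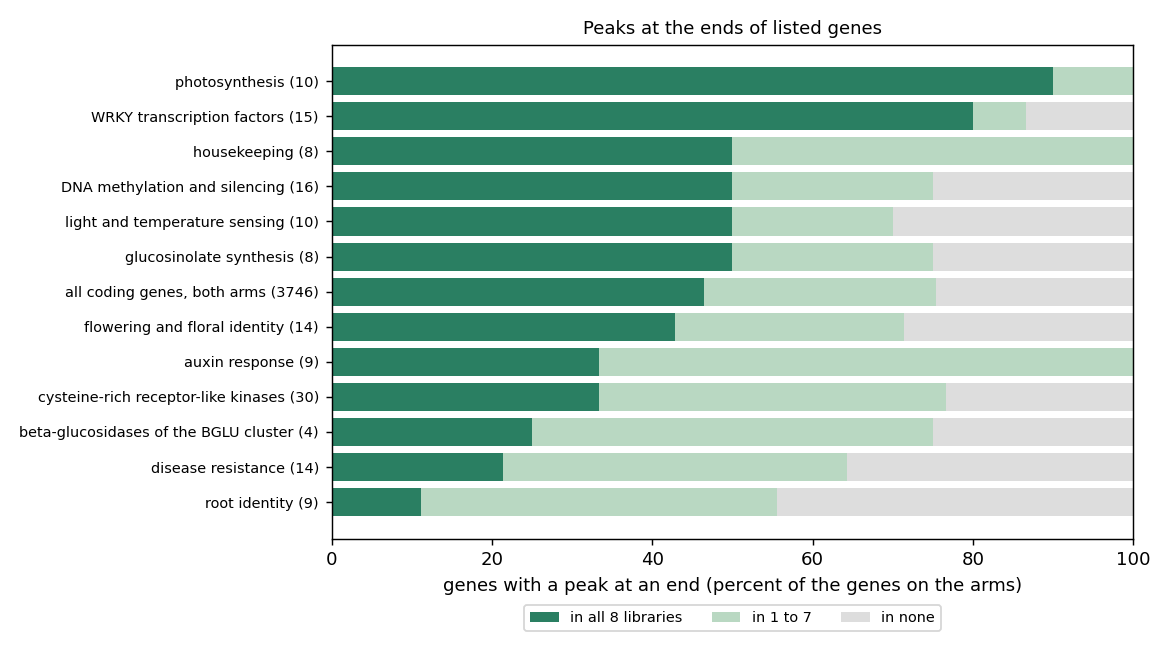
Share of the genes on the arms with a peak at an end in all 8, in 1 to 7 and in none of the libraries (horizontal axis, percent) for 12 lists and for all 3746 coding genes, with the number of genes in parentheses. Photosynthesis (90.0% in all 8) and WRKY genes (80.0%) lie above all coding genes (46.5%), and disease resistance (21.4%) and root identity (11.1%) below.

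Between generations 10 arm regions were specific. In 4 of 4 generation 10 libraries and 0 of 4 at generation 3 there were 9 (0.268%, background 0.328%), and the reverse held for 1 (0.0297%, background 0.0166%). All had low folds. The region at PPX1, which encodes a protein phosphatase (13472320 to 13472538), had 4.23 and 4.25 in RIL149 and 2.46 and 3.34 in RIL50 at generation 10. KELP, a transcriptional coactivator, had 3.96, 3.61, 3.12 and 2.93 (6696305 to 6696810). ACD6, a regulator of salicylic acid defence, had 2.02, 4.81, 2.00 and 2.43 (8298711 to 8299108), and its other end peak was listed at both generations. The region near TOC159, a receptor for import of proteins into chloroplasts, and GSTF2, a glutathione transferase (1111638 to 1111992), had a mean fold of 2.57, and SHV3, a gene of cell wall organisation, one of 2.48. The region of generation 3 lay at AT4G36640 (17279514 to 17279968), with folds of 2.06, 2.23, 3.02 and 1.96. With lists of equal length 2 regions were specific to generation 10 and 9 to generation 3, so the direction was not kept.

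Within the lines the generations differed in opposite directions, on the arms as in the whole nuclear genome. In RIL149, 296 long arm regions (9.78%, background 9.44%) were open in both generation 10 libraries and neither generation 3 library. The other way there were 2 (0.0661%, background 0.0456%). On the short arm the counts were 36 (10.7%) and 0 (0%), with the same backgrounds. In RIL50 the long arm held 32 (1.06%, background 1.15%) against 76 (2.51%, background 2.44%) and the short arm 3 (0.89%) against 5 (1.48%). The long arm shares were near the background. By lineage, the long arm gained 332 and 1043 regions from generation 3 to generation 10 in RIL149 and changed by -13 and -216 in RIL50. Both lineages of a line moved in the same direction (exact permutation p = 0.333 between the lines, the smallest that 2 lineages against 2 allow), and the largest change was that of RIL149 lineage 2, whose generation 3 list was the shortest.

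Regions shared by few libraries were compared with descent. Of the regions listed in 1 library only, 136 were in RIL149 at generation 10 lineage 2 and 4 in RIL149 at generation 3 lineage 2. Regions listed in exactly 2 libraries were most often those of the RIL149 generation 10 pair (64), while the pairs of the same lineage had 10 and 0 in RIL149 and 14 and 6 in RIL50. Libraries of the same lineage shared 68.5% of their arm regions in RIL149 and 79.8% in RIL50, and libraries of different lineages and generations 69.0% and 78.9%.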

How the data were processed

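ATAC-seq was measured in 8 libraries of shoots, and each library has its own deposited list of peaks. Tools named in the submitters' processing notes are MACS2 2.2.9.1, Picard, BWA 0.7.17 and Trimmomatic 0.39, with the build TAIR10. No source used here gives the read shifting or the handling of reads that match several places, and the effect of mapping Ler and Cvi alleles to this reference was not tested. Per the file headers, the authors give each peak a score, a fold (ratio over local background) and a −log10 p and q.

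Nuclear peaks were merged, and presence meant a listed peak within the region. The members, gene lists and tests were chosen with earlier results of these data known. Groups came from the labels, and line, generation or window counts were compared with exact permutation tests (70 arrangements) or limma 3.58.1 in R 4.3.3. Merging and fits were tested on simulated data. Named regions were the 12 highest in mean fold per line, and 5 per generation, within 1000 bp of a coding gene with a symbol (all where fewer), all of the window with the most line-specific regions, and the 10 with the highest lowest fold in 8 libraries, of which 1 is not reported here. Listed genes with peaks in 4 libraries of a line and at most 1 of the other, and the 3 regions beside each arm limit, were also named. Genes came from a RefSeq table of TAIR10.1, whose coordinates are not printed, and all listed identifiers matched.

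Depth is known only from the pileup at the summit, recovered from fold and p for 19836 arm peaks, of which 100% were whole within 0.01 of −log10 p. The lowest pileup listed ranged from 18 to 41. Lineages link generations by descent, per the labels. Deviations from the group means correlated by 0.00599 in RIL149 and 0.0425 in RIL50 over lineages. Alternatives were a stricter q, a fold minimum, lists of equal length, 50% coverage of a region, other arm limits and other windows. A block by lineage number and the loss of each library were also tried. Leaving out the shortest list of each line, and comparing lines within a generation, were chosen after seeing the data. The 2433 organelle peaks were left out.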

Additional observations from a re-analysis of the deposited data

Results flagged for a closer look

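The change from generation 3 to generation 10 had opposite signs in the lines on both arms. On the short arm it was 44 and 118 regions in the lineages of RIL149 and -9 and -15 in those of RIL50, which puts the mean change of RIL149 higher by 93.0 regions. On the long arm it was 332 and 1043 in RIL149 and -13 and -216 in RIL50, higher by 802 regions in RIL149. All nuclear regions moved the same way, by 2500 and 8259 in RIL149 and by -74 and -1936 in RIL50. In percent of generation 3, the long arm changed by 16.4 and 68.9 in RIL149 and by -0.562 and -9.59 in RIL50, beside 15.4, 67.5, -0.402 and -10.8 for all nuclear regions, so the changes on the arm went with the length of the whole lists. The exact permutation p was 0.333 for each arm, the smallest that 2 lineages against 2 can give, so the design cannot pass the threshold. Of the 40 sets of 4 libraries examined for a library apart from the rest, none was marked on the arm measures at Dixon's limit of 0.829.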

How the results depend on the processing

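The counts of regions per library kept their direction and their side of the threshold between generations under all settings tried. With lists of equal length the difference (generation 10 minus generation 3) fell from 34.5 to 4.75 regions on the short arm. On the long arm it fell from 286 to 24.5. This comparison pools 2 lines whose changes had opposite signs. Between the lines, leaving out 1 library gave differences (RIL149 minus RIL50) from -23.0 to 16.3 regions on the short arm and from -262 to 85.2 on the long arm, with the sign turned by the loss of RIL149 generation 3 lineage 2. The share of nuclear regions on the arms differed by -0.177 percentage points with a −log10 q of at least 5 (exact permutation p = 0.0286) and by -0.189 to -0.0864 when 1 library was left out, past the threshold only without RIL149 generation 10 lineage 1. Regions only in RIL149 numbered 18 to 59 and only in RIL50 50 to 72 with 1 library left out. Without the shortest list of each line the first count was 64, at generation 3 alone the counts were 28 and 279, and at generation 10 alone the first was 210. Regions only in generation 10 numbered 2 with lists of equal length and 9 to 35 with 1 library left out (35 without RIL50 generation 10 lineage 2, 29 without RIL50 generation 3 lineage 1), and regions only in generation 3 numbered 9 with lists of equal length, 0 with the same q minimum or a minimum fold of 2, and 1 to 4 with 1 library left out. The short arm was 2.80 per Mb above the long arm with lists of equal length. limma called 0 or 1 arm windows between the lines with 1 library left out, and of all windows 2 at 1 Mb, 3 with the q minimum and 1 to 6 with 1 library left out. With a replicate block no call changed. Between the lines the block paired libraries of the same generation and lineage number, which is not a pairing by descent. The exact permutation p by sign was then 1 (short), 0.75 (long) and 0.25 (share), in a design whose 4 pairs cannot pass the threshold. Of 26 named line-specific regions 15 kept their call under every setting. Leaving out 1 library cannot remove such a call, because the rule then asks for fewer lists, so it was no test of these regions. The cause of these changes was not tested beyond the fact that fewer libraries or peaks enter. The lowest summit pileup listed ranged from 18 to 41 over the libraries, and its part in which regions are listed was not tested.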
